A study of Mus musculus with 2 samples.

Results

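A set of 7 corticosteroid genes was followed in mouse cerebral cortex: the receptor genes Nr3c1 and Nr3c2, the targets Fkbp5, Sgk1, Tsc22d3 and Zbtb16, and the hormone-activating enzyme gene Hsd11b1. They were taken by symbol, and all 7 of 7 were found among the 55536 annotated genes of the study. Total RNA came from the left cerebral cortex of 2 males, 8 to 10 months old, from a cross of 5xFAD with CAST, and each library was made from 300 ng. 5xFAD mice carry mutant human transgenes under the neuronal Thy1 promoter and form amyloid plaques, whereas CAST is an inbred strain of wild origin. Both animals, biological replicates 1 and 2, came from this cross and belonged to a single group, and the labels name no hormone treatment or stressor. Transgene transcripts were not examined. No other genotype was analysed here, and the values thus describe the levels of these genes in this cortex and how far its 2 animals differed. Each library has its own biosample label, while the donor label is shared and appears to name the strain. The 2 biosamples were therefore taken as 2 animals, which the labels do not state outright.

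Glucocorticoids of the adrenal cortex enter the brain and bind a pair of nuclear receptors: the mineralocorticoid receptor, which binds corticosterone with high affinity, and the glucocorticoid receptor, which is occupied mainly when the hormone is high. Unbound receptors are held in the cytoplasm by heat shock proteins and immunophilins. With ligand they enter the nucleus, bind palindromic response elements as dimers, and induce genes such as Fkbp5, which encodes an immunophilin that lowers the receptor's affinity for hormone and so closes a feedback loop.

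The 7 genes spanned a moderate range of expression, and no gene of the 7 differed by 2-fold between the animals. Levels are given in TPM, a share of all transcripts that is scaled to gene length and can be compared between genes. Sgk1 and Nr3c1 had the highest levels, Tsc22d3 and Zbtb16 stood in the middle, Fkbp5 and Nr3c2 were lower, and Hsd11b1 was lowest. The median of the 7 mean levels was 28.0 TPM, beside a median of 14.99 TPM for the 13070 nuclear protein-coding genes detected at 1 TPM or more in both libraries. Ranges of the 2 animals overlapped between Sgk1 and Nr3c1 and between Fkbp5 and Nr3c2, so the order inside those pairs is not resolved. In replicate 1 alone Nr3c1 stood above Sgk1, at 43.3 against 43.0 TPM, and Nr3c2 and Fkbp5 were level at 16.8 and 16.7 TPM. The other neighbours in the order did not overlap in these values, although in the second deposited quantification, in the format of the program kallisto, Zbtb16 and Fkbp5 also met, at 25.0 TPM in replicate 1 and 25.2 TPM in replicate 2.

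**Figure D1:**
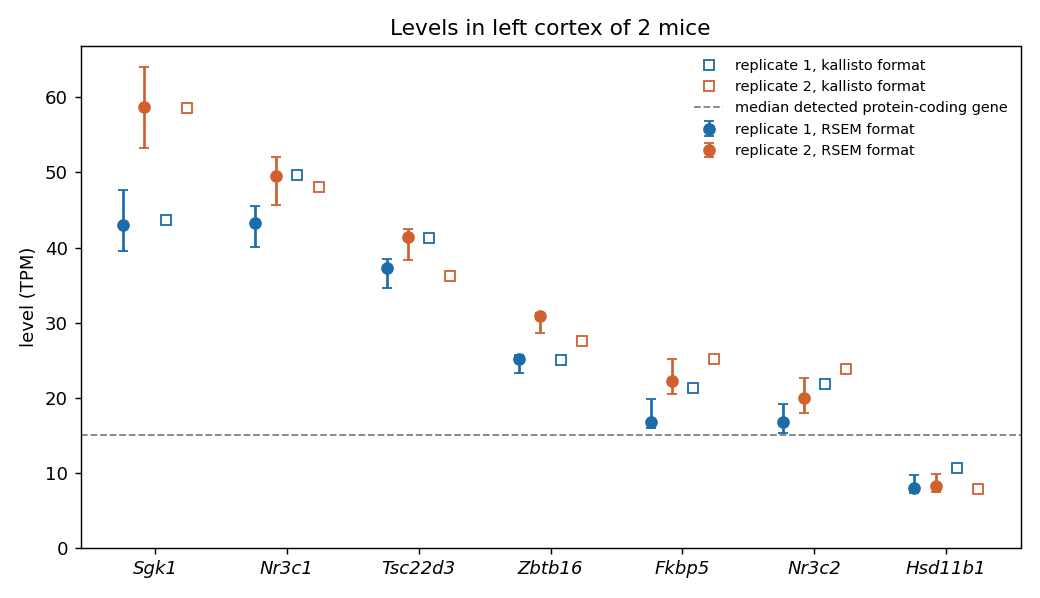
Level in TPM of each gene in the 2 mice, as filled circles with the authors' posterior intervals (RSEM-format tables) and as open squares (kallisto-format tables, no interval). The dashed line marks the median detected protein-coding gene; of the 7 genes only Hsd11b1 lies below it, in both animals and both quantifications.

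The libraries held 34101499 and 32543032 expected counts in replicates 1 and 2, and the biological coefficient of variation over 18161 genes was 6.35%. Nuclear protein-coding genes took 42.1% and 45.2% of all TPM. The median detected protein-coding gene thus had a TPM that was higher in replicate 2 by 0.12 on the log2 scale, and differences between the animals were therefore measured on reads scaled by the TMM method, where the median ratio of all tested genes was 0.00. Cortical markers were present: the median levels of 10 excitatory neuron markers were 33.5 and 37.2 TPM, with Camk2a at 946 and 968 TPM and Nrgn at 616 and 702 TPM. Striatum markers were present as well, with median levels of 53.1 and 62.6 TPM. Ppp1r1b stood at 199 and 229 TPM and Penk at 149 and 175 TPM. How much tissue other than cortex the libraries held was not tested. By the RSEM-format counts all 10 choroid plexus markers had more reads in replicate 1, with summed levels of 563 and 110 TPM. Of these Ttr made up 535 and 101 TPM and Kl 5.17 and 1.76 TPM. In the kallisto-format counts the interval of a single marker among them, with a log2 ratio of -0.04, included equal levels. In bulk tissue, fewer cells of a type and less RNA per cell cannot be told apart. In contrast 8 of 10 immediate early genes, which neuronal activity induces, had more reads in replicate 2, with summed levels of 119 and 246 TPM, led by Egr1 at 35.9 and 70.0 TPM and Arc at 22.1 and 53.9 TPM.

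Nr3c1 encodes the glucocorticoid receptor (ENSMUSG00000024431.15, mm10 chromosome 18, 39410545 to 39519421, minus strand, 9 annotated transcripts). It stood at 43.3 TPM in replicate 1 and 49.6 TPM in replicate 2, from 4323 and 4272 reads, a mean of 46.5 ± 4.43 TPM (SD, n = 2). It was higher than 83.1% of detected protein-coding genes. The scaled reads differed by a log2 ratio, replicate 2 over replicate 1, of 0.02 (95% Clopper-Pearson interval -0.04 to 0.08), so no difference between the animals was detectable at this depth. The kallisto-format tables gave 49.7 and 48.0 TPM and a log2 ratio of -0.04 (interval -0.09 to 0.02).

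Nr3c2 encodes the mineralocorticoid receptor (ENSMUSG00000031618.13, mm10 chromosome 8, 76899442 to 77245012, plus strand, 8 annotated transcripts). Its level was 16.8 TPM in replicate 1 and 19.9 TPM in replicate 2, from 1767 and 1729 reads, a mean of 18.3 ± 2.22 TPM (SD, n = 2). The scaled reads had a log2 ratio of 0.00 (95% interval -0.09 to 0.10), again with no difference detectable between the animals. Glucocorticoid receptor transcripts outnumbered mineralocorticoid receptor transcripts in both mice: the ratio of their TPM was 2.58 and 2.49, or 2.54 ± 0.0656 (SD, n = 2). In the kallisto-format tables the same ratio was 2.28 and 2.02. Nr3c2 shares 247 exon bases with the opposite-strand noncoding gene Gm10649, which held 48 and 26 reads, and reads from the shared part cannot be told apart if strand was not used in counting.

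Both receptor genes have alternative splice donors annotated at the end of the exon that precedes the second zinc finger of the DNA-binding domain. Transcript models with the longer and with the shorter form were assigned reads in both genes. Reads across the junction were not counted. The shares are sums over whole models, which also differ in length and in their ends, so they do not measure donor use directly. In Nr3c1 the longer form adds 3 bases (1 residue) and is annotated in Nr3c1-202 and Nr3c1-208. The shorter form is annotated in Nr3c1-203, Nr3c1-204 and Nr3c1-201, each with 792 coding residues. Summed over transcripts, the longer form stood at 9.65 TPM in replicate 1 and 10.5 TPM in replicate 2, against 23.8 and 26.5 TPM of the shorter form. The longer form was thus 28.8% and 28.4% of both, or 28.6% ± 0.29 (SD, n = 2), and the kallisto-format tables gave 31.3% and 30.3%. The share of assigned reads was smaller, 11.6% and 11.2%, because the models of the longer form are shorter: Nr3c1-202 has 2382 bases, its coding sequence alone, and Nr3c1-203 has 6436. The animals were close to each other on each scale, while the choice of scale moved the share by more than the animals did.

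In Nr3c2 the donor of the exon that starts at base 77085527 lies at 77085666 in the shorter form and at 77085678 in the longer form, Nr3c2-201, which encodes 984 residues in place of 980. The transcript sequences across this junction, from the GENCODE M21 transcripts of mm10, are printed because they show how the annotated forms differ at this donor. They run from 30 bases before the shorter donor to 30 bases of the next exon, and capitals mark the 12 added bases.
Nr3c2-203: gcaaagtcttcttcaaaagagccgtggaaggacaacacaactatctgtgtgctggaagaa
Nr3c2-201: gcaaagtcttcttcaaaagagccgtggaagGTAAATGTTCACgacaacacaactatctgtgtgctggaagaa
The reading frame is kept, since the added run codes for 4 residues. The longer form stood at 2.19 TPM in replicate 1 and 2.39 TPM in replicate 2, against 11.6 and 12.7 TPM of the 4 transcripts with the shorter exon, which is 15.9% and 15.8% of both. By assigned reads it was 9.03% and 9.07%. Nr3c2-201 is also a model of the coding sequence alone, with 2955 bases, while Nr3c2-203 has 5675. The kallisto-format tables gave larger and less even shares of 28.5% and 20.1%, so the mineralocorticoid receptor split depends on the quantifier, more than that of Nr3c1 does. The authors' posterior intervals for Nr3c2-201 ran from 0.167 to 2.90 TPM and from 0.989 to 3.76 TPM.

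Among the receptor transcripts with at least 10% of their gene, Nr3c1-203 took 40.2% and 29.0% of the gene's TPM and Nr3c1-204 took 14.8% and 24.4%. Both encode 792 residues, and their start sites lie at 39490674 and 39487245, so the division concerns the first exon and not the protein. Their posterior intervals overlapped between the animals, at 12.2 to 20.7 and 9.80 to 20.5 TPM for Nr3c1-203 and 2.37 to 10.9 and 4.61 to 15.4 TPM for Nr3c1-204. In the kallisto-format tables the order of the animals was the opposite, with Nr3c1-203 at 33.3% and 36.1% and Nr3c1-204 at 14.6% and 11.8%. Nr3c1-209, a model of 377 bases with the most upstream start, took 17.8% and 18.8% of the TPM from only 1.23% and 1.35% of the reads. Nr3c1-202 took 11.6% and 9.19%, and Nr3c1-208 took 10.7% and 11.98%. In Nr3c2, Nr3c2-203 took 35.2% and 36.1%, Nr3c2-204 took 27.5% and 20.9%, Nr3c2-206, of 612 bases, took 17.9% and 21.3%, and Nr3c2-201 took 13.1% and 12.02%. The kallisto-format tables gave 19.2% and 25.9% to Nr3c2-205, a noncoding model of 350 bases that the other tables list at 0.

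**Figure D2:**
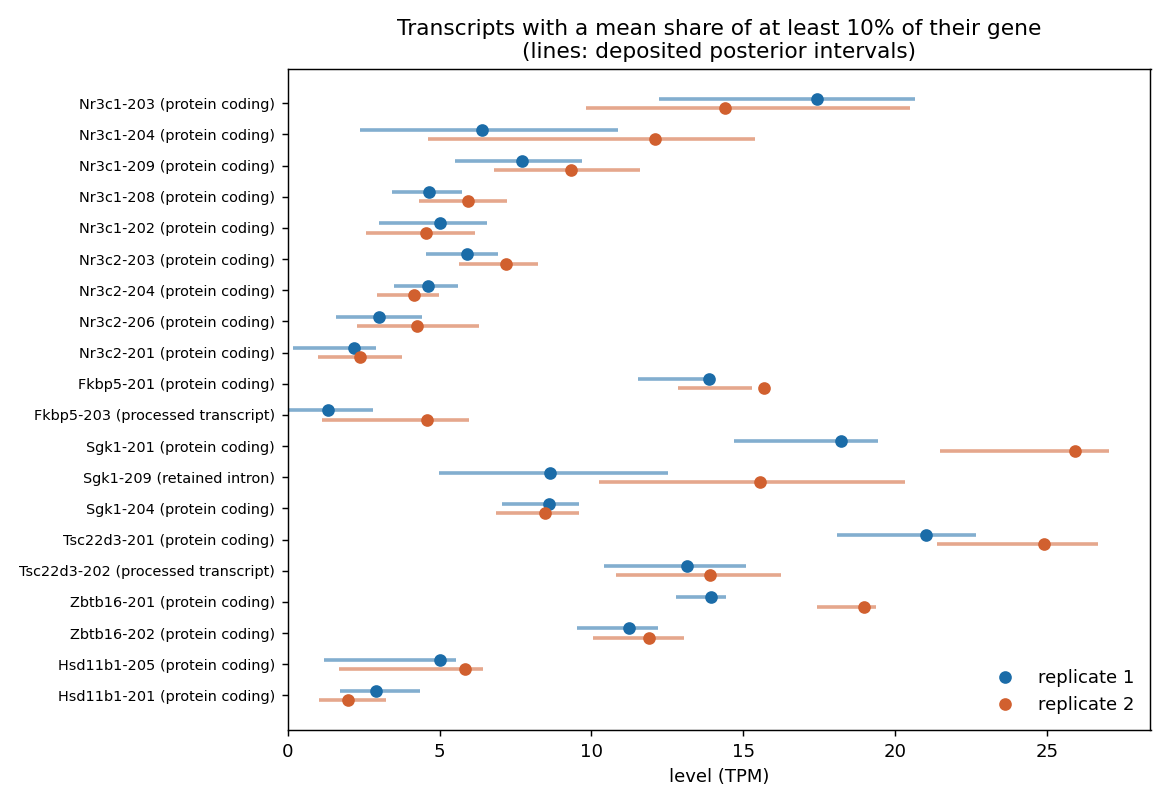
TPM of every transcript with a mean share of at least 10% of its gene, in replicate 1 (blue) and replicate 2 (orange), with the posterior interval deposited for each. The intervals of the animals overlap for each transcript shown except Sgk1-201 and Zbtb16-201, both higher in replicate 2. These TPM are not rescaled, and the median protein-coding gene was also higher in replicate 2. The share of all transcripts whose intervals do not overlap was not counted.

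Fkbp5 encodes the immunophilin FKBP51 (ENSMUSG00000024222.17, mm10 chromosome 17, 28399094 to 28517527, minus strand). It stood at 16.7 TPM in replicate 1 and 22.2 TPM in replicate 2, a mean of 19.5 ± 3.83 TPM (SD, n = 2). Its reads were nearly equal, at 1285 and 1330, with a log2 ratio of 0.08 (95% interval -0.03 to 0.20). The wider gap in TPM came with an effective gene length that the authors' tables give as 3074 bases in replicate 1 and 2691 in replicate 2, a log2 ratio of -0.19. That length is an average over the transcripts assigned, and Fkbp5-203, a noncoding model of 838 bases, was assigned 24.8 and 75.2 reads, or 8.03% and 20.6% of the gene's TPM. This split is uncertain: the posterior intervals of Fkbp5-203 overlapped, at 0.000392 to 2.80 and 1.14 to 5.96 TPM, and the kallisto-format tables gave it 4.59 and 5.05 TPM, or 21.6% and 20.0% of the gene. Fkbp5-201, which encodes 456 residues, took 92.9% and 90.5% of the reads and stood at 13.9 and 15.7 TPM. The level of Fkbp5 was close to that of Nr3c2 in both animals, with TPM ratios of 0.999 and 1.11.

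Sgk1 encodes the serum- and glucocorticoid-regulated kinase, which phosphorylates the ubiquitin ligase Nedd4-2 and Ndrg proteins (ENSMUSG00000019970.15, mm10 chromosome 10, 21882184 to 21999903, plus strand, 13 annotated transcripts). Its level was 43.0 TPM in replicate 1 and 58.7 TPM in replicate 2, a mean of 50.8 ± 11.1 TPM (SD, n = 2), the widest spread of the 7 genes. The reads were 2021 and 2239, with a log2 ratio of 0.18 (95% interval 0.09 to 0.27), or 1.13-fold. The log2 ratio of TPM was larger, at 0.45. This wider gap came with effective gene lengths of 1884 bases in replicate 1 and 1711 in replicate 2, a log2 ratio of -0.14. The median protein-coding gene was also higher in replicate 2, by 0.12. Calls use a stricter counting interval than the printed one, and here the strict interval excluded equal levels, as did that of the kallisto-format counts, with a log2 ratio of 0.19. Both quantifications therefore placed Sgk1 higher in replicate 2, by less than 1.5-fold.

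The Sgk1 difference was not spread evenly over its start sites. The 3 transcripts that start between 21994666 and 21994711, led by Sgk1-201, summed to 28.7 TPM in replicate 1 and 43.6 TPM in replicate 2, which is 66.7% and 74.3% of the gene. Sgk1-201 itself, which encodes 431 residues, stood at 18.2 and 25.9 TPM, with posterior intervals of 14.7 to 19.4 and 21.5 to 27.1 TPM that did not overlap. Sgk1-209, a retained-intron model of 347 bases at the same start, stood at 8.65 and 15.5 TPM from 53.4 and 85.6 reads. By contrast Sgk1-204, which starts far upstream at 21882184 and encodes 524 residues, stood at 8.61 and 8.48 TPM. Sgk1-202, which starts at 21993890 and encodes 445 residues, stood at 2.38 TPM in both animals. By assigned reads, the downstream start held 1152 and 1475 and Sgk1-204 held 644 and 567, so the gene's higher reads in replicate 2 lay at the downstream start. In the kallisto-format tables Sgk1-201 was also higher in replicate 2, at 15.7 and 19.6 TPM, and Sgk1-204 was not, at 9.54 and 8.48 TPM. The share of Sgk1-201 in the gene did not rise there, at 35.8% and 33.4%. The short Sgk1-209 rose more, at 4.61 and 12.5 TPM, so the part of each transcript in the Sgk1 difference depends on the quantifier.

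The window before Sgk1-202 is printed because it alone, among the 12 promoter windows of these genes, holds the consensus palindrome of the steroid response element. The motif searched was AGAACANNNTGTTCT, which reads the same on both strands, in the RefSeq promoter windows of GRCm38.p6 that run from 250 bases before to 50 bases after each start. It occurred in 3 of 32851 windows, or 0.00913%. Of the 12 windows 6 belong to Sgk1, and 5 of the 7 genes matched at least 1 window. The bases upstream of the start are chr10:21993640-21993889, plus strand, with the palindrome in capitals.
Sgk1: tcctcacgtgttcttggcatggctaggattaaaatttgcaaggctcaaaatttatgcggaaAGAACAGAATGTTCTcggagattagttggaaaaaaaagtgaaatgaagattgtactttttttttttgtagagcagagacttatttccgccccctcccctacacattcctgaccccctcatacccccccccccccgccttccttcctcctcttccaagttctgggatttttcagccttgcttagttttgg
The palindrome ends 175 bases before the start of Sgk1-202 and 951 bases before that of Sgk1-201. A looser form, GNACANNNTGTNC, which overlaps the first, occurred in 156 windows, or 0.475%. Of the 7 genes it occurred in the same Sgk1 window only, and of 57 genes of the lists described below that have a window it occurred in 2, Mt1 and Map3k6. These sites are chr8:94178995-94179007 and chr4:133240637-133240649 on the plus strand, shown with 12 bases on either side.
Mt1: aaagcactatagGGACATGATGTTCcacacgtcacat
Map3k6: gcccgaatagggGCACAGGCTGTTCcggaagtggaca
These are reference sequences and not reads of these mice, and a match of letters does not show that a receptor was bound there.

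**Figure D3:**
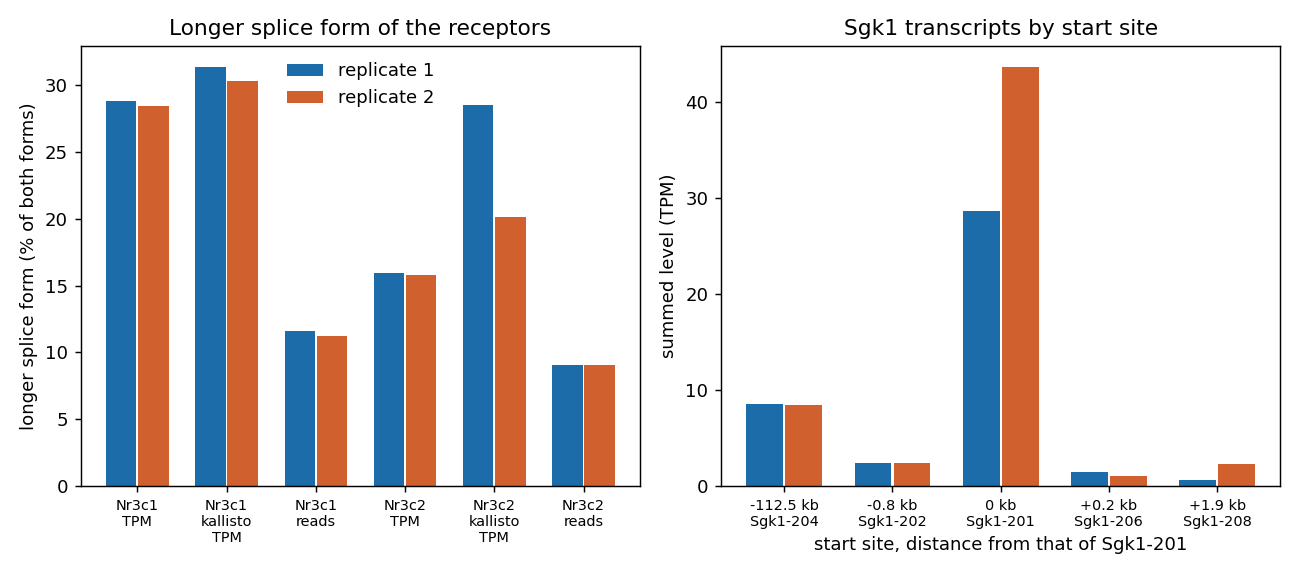
Left, share in percent of the longer splice form of each receptor among transcripts with either donor, by TPM of the RSEM-format tables, TPM of the kallisto-format tables and assigned reads; replicate 1 is blue and replicate 2 orange. Right, summed TPM of Sgk1 transcripts by start site, for starts with a mean share of at least 2%. The bars at the Sgk1-201 start are 28.7 and 43.6 TPM, and those of Sgk1-204 and Sgk1-202 are level in TPM. Assigned reads, before scaling, were 644 and 567 for Sgk1-204 and 147 and 131 for Sgk1-202.

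Tsc22d3 encodes GILZ, a leucine zipper protein that restrains inflammatory transcription factors (ENSMUSG00000031431.13, mm10 chromosome X, 140539528 to 140600659, minus strand). It stood at 37.3 TPM in replicate 1 and 41.4 TPM in replicate 2, a mean of 39.3 ± 2.89 TPM (SD, n = 2). The reads were 1643 and 1646, with a log2 ratio of 0.04 (95% interval -0.06 to 0.14). In the kallisto-format tables the TPM were in the other order, at 41.3 and 36.2, so no direction can be read from the TPM of this gene. Tsc22d3-201, which encodes the form of 137 residues, took 56.4% and 60.2% of the gene, and the noncoding Tsc22d3-202 took 35.2% and 33.6%. The kallisto-format tables gave Tsc22d3-201 34.7% and 46.7% and Tsc22d3-202 37.8% and 44.9%, so which of the pair leads depends on the quantifier and the animal. The form of 201 residues from the distal start, Tsc22d3-203, took 3.27% and 2.00%, from 44.3 and 26.9 reads.

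Zbtb16 encodes the zinc finger transcription factor PLZF, a glucocorticoid-induced gene in many cell types (ENSMUSG00000066687.5, mm10 chromosome 9, 48654297 to 48836222, minus strand). It stood at 25.2 TPM in replicate 1 and 30.9 TPM in replicate 2, a mean of 28.0 ± 4.04 TPM (SD, n = 2). The reads were 2420 and 2759, with a log2 ratio of 0.22 (95% interval 0.14 to 0.30), or 1.17-fold, the largest ratio of the 7 genes. Its strict interval excluded equal levels in both quantifications. Of its 2 transcripts, both with 673 coding residues, the longer model Zbtb16-201 stood at 13.9 and 19.0 TPM, with intervals of 12.8 to 14.4 and 17.4 to 19.4 TPM. Zbtb16-202 stood at 11.2 and 11.9 TPM, with intervals that overlapped. The shares were 55.4% and 61.4% for Zbtb16-201 and 44.6% and 38.6% for Zbtb16-202, and the difference between the animals thus lay in the longer model.

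Hsd11b1 encodes the reductase that regenerates active corticosterone inside cells (ENSMUSG00000016194.14, mm10 chromosome 1, 193221634 to 193264075, minus strand). It was the lowest of the 7 genes, at 7.90 TPM in replicate 1 and 8.20 TPM in replicate 2, a mean of 8.05 ± 0.212 TPM (SD, n = 2), above 31.2% of detected protein-coding genes. Its 267 and 239 reads gave a log2 ratio of -0.13 with the widest interval of the 7, -0.38 to 0.13. Glucocorticoid receptor transcripts stood 5.48-fold and 6.05-fold above it in TPM. Hsd11b1-205, from the distal start, took 63.4% and 71.1% and Hsd11b1-201 took 36.6% and 24.4%; both encode 292 residues. The kallisto-format tables gave Hsd11b1-205 14.6% and 46.4%, so the use of its start sites was not resolved by these data.

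Set against the whole table, 2 of the 7 genes had a strict interval that excluded equal levels and a higher level in replicate 2, namely Sgk1 and Zbtb16, where 4.25% of the 19484 tested genes did. None of the 7 was higher in replicate 1 by this rule, where 4.51% of tested genes were. None passed 2-fold, where 1.22% did. The median log2 ratio of the 7 was 0.04, and the median size of the ratio over all tested genes, of either sign, was 0.13. Sgk1 exceeded 62.3% of tested genes in the size of its ratio and Zbtb16 exceeded 68.3%. Genes were tested from 10 reads, where counting error alone gives large ratios, whereas the 7 genes had at least 239 reads in each library. Neither these ranks nor the shares above compare genes of like depth. RSEM-format TPM was higher in replicate 2 for all 7 genes, as it was for the median protein-coding gene, whereas kallisto-format TPM was higher there for 4 of the 7. Intervals cover counting error only, and with 1 group of 2 animals no test between conditions is possible. Immediate early genes (8 of 10) and striatum markers (4 of 10, with summed levels of 695 and 817 TPM) were higher in replicate 2 as well. By the RSEM-format counts, markers of choroid plexus (10 of 10), astrocytes (9 of 10), oligodendrocytes (5 of 10) and microglia (4 of 10) were higher in replicate 1. The part of these markers in the Sgk1 and Zbtb16 ratios was not tested.

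**Figure D4:**
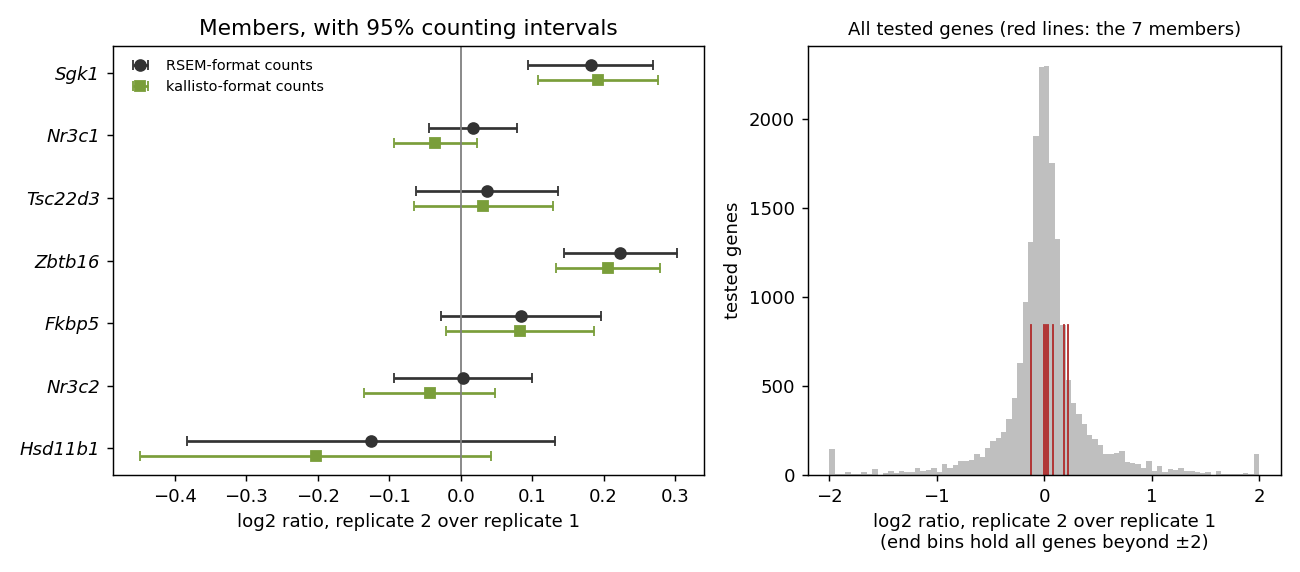
Left, log2 ratio of scaled reads, replicate 2 over replicate 1, with 95% counting intervals, for both quantifications; only the intervals of Sgk1 and Zbtb16 exclude 0. Right, histogram of the same ratio over the 19484 tested genes, with the 7 genes as red lines inside its centre.

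The receptor's chaperones ranged from Hspa1a, at 5.37 and 5.21 TPM, to Hspa8, at 730 and 752 TPM. The list of 13 genes had a median log2 ratio of -0.03 and a median level of 73.0 TPM. By the strict interval 2 of them had more reads in replicate 1 and none in replicate 2, where 4.51% and 4.25% of all tested genes did. The 2 were Hspa8, the constitutive heat shock cognate, with a log2 ratio of -0.11, and Stip1, which joins Hsp70 to Hsp90, at 82.4 and 82.3 TPM with a log2 ratio of -0.13. Hsp90ab1, the constitutive Hsp90, stood at 602 and 646 TPM with a log2 ratio of -0.02; in the kallisto-format counts the ratio was -0.04 and its strict interval excluded equal levels. For these abundant genes the depth makes small ratios visible.

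Among receptor coregulators, 5 of 12 had more reads in replicate 2 by the strict interval and none in replicate 1. Over all tested genes 4.25% and 4.51% did. Each coregulator had at least 1775 reads in replicate 1, whereas genes were tested from 10 reads, and small ratios pass the interval more readily at high counts. The list had a median log2 ratio of 0.04 and a median level of 31.8 TPM. Among the 5 were the coactivator Ncoa3 (11.9 and 15.4 TPM, log2 ratio 0.20), Nrip1 (15.7 and 21.6 TPM, 0.15) and the acetyltransferases Ep300 and Crebbp (both 0.12). The ratios of these named genes were all smaller than that of Zbtb16, while that of Ncoa3 was larger than the 0.18 of Sgk1. In the kallisto-format counts the intervals of Ncoa3 and Nrip1 included equal levels, with log2 ratios of 0.13 and 0.10. Ncor1 had the highest level of this list, at 95.6 and 110 TPM, with a log2 ratio of 0.05. The immediate early genes (8 of 10) and striatum markers (4 of 10) were higher in the same animal, and astrocyte markers (9 of 10) in the other; their part in the coregulator ratios was not tested.

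Other genes that glucocorticoids induce did not move in 1 direction: of 19 tested, 3 had more reads in replicate 2 and 3 in replicate 1. Over all tested genes those shares were 4.25% and 4.51%. The median log2 ratio of the list was -0.0018. Per1, a clock gene, stood at 34.5 TPM in replicate 1 and 61.4 TPM in replicate 2, a log2 ratio of 0.60 (95% interval 0.53 to 0.66). Dusp1, a phosphatase of MAP kinases, stood at 8.94 and 14.6 TPM (0.54, interval 0.35 to 0.72). The third was Ddit4, an inhibitor of mTORC1, at 14.6 and 19.4 TPM (0.28). Per1 and Dusp1 are also induced by neuronal activity, and the immediate early genes were higher in the same animal; their part in these ratios was not tested. In the other direction, the metallothioneins Mt2 (188 and 169 TPM) and Mt1 (228 and 221 TPM) had log2 ratios of -0.28 and -0.17. Glul, the glutamine synthetase of astrocytes and the most abundant gene of the list at 849 and 805 TPM, had a log2 ratio of -0.15. Astrocyte markers moved with these genes, with 9 of 10 higher in replicate 1, a median log2 ratio of -0.15 and summed levels of 1686 and 1679 TPM. Slc1a2 and Aldoc led them, at 643 and 664 TPM and at 378 and 359.9 TPM, and the part of these markers in the result was not tested.

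**Figure D5:**
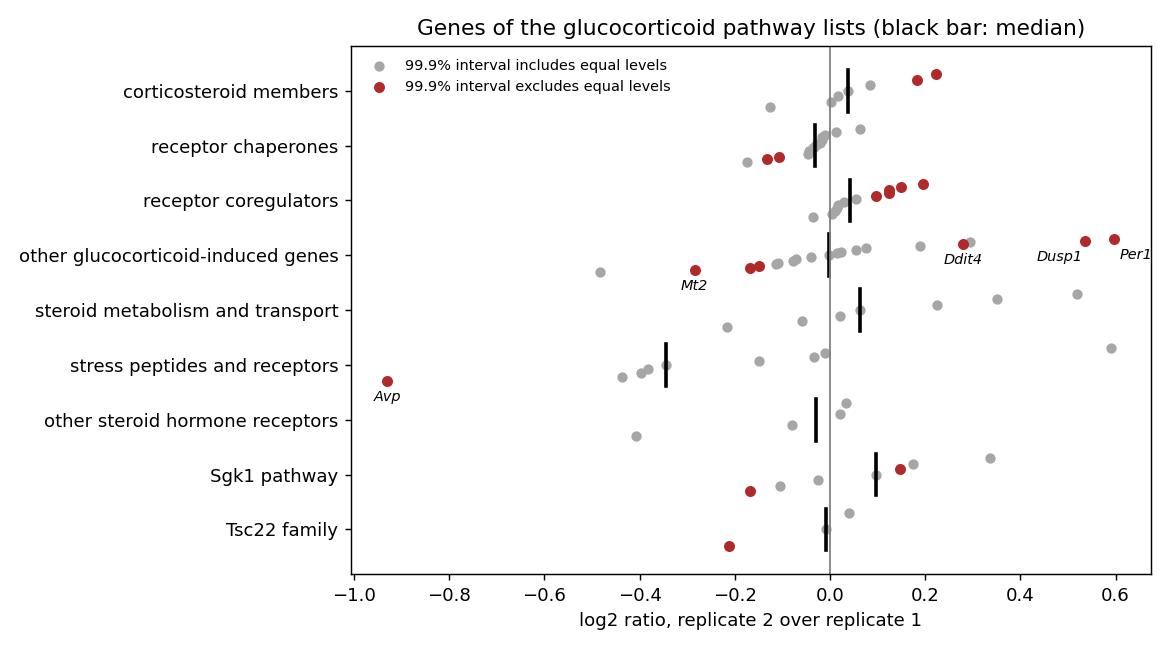
Log2 ratio of scaled reads, replicate 2 over replicate 1, for each tested gene of the members and of 8 lists of related genes; red points have a strict counting interval that excludes equal levels, and black bars are list medians. Per1 and Dusp1 lie farthest to the right among the red points and Avp farthest to the left, at -0.93.

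Genes that make, carry or inactivate steroids were at low levels. Of 11 listed, 7 could be tested and none differed by the interval in either direction. Hsd11b2, the enzyme that inactivates corticosterone and protects the mineralocorticoid receptor in the kidney, had 0 and 2 reads, under the floor of 3 reads that a count of 0 allows. Serpina6, the corticosteroid-binding globulin, had 0 reads in both, and Cyp11b2, the aldosterone synthase, had 2 and 0. The enzyme H6pd, which supplies the cofactor that Hsd11b1 needs, stood at 4.76 and 6.44 TPM, and Abcb1a, the efflux pump of the blood-brain barrier, at 8.47 and 9.39 TPM. The regenerating enzyme was therefore detected and the inactivating enzyme was not detectable at this depth.

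Of 13 stress peptides and their receptors, 9 could be tested. By the RSEM-format counts the one past the strict interval was Avp, vasopressin, a peptide of hypothalamic neurons. It stood at 18.3 TPM in replicate 1 and 10.4 TPM in replicate 2, a log2 ratio of -0.93 (95% interval -1.28 to -0.60). Of the thalamic and hypothalamic markers, 5 of 8 tested were also higher in replicate 1 by the strict interval and none in replicate 2. Over all tested genes 4.51% and 4.25% were. Summed levels of these markers were 60.7 and 43.2 TPM. In the kallisto-format counts the interval of a single marker among the 5, with 12 and 0 reads, included equal levels. The most abundant of the list, Slc17a6 and Calb2, stood at 13.2 and 14.0 TPM and at 16.8 and 10.0 TPM. Their log2 ratios of scaled reads were -0.28 and -0.87. The part of these markers in the Avp difference was not tested. Adcyap1, which encodes the peptide PACAP, had a log2 ratio of -0.34 (interval -0.57 to -0.12) that did not pass the strict interval, whereas its kallisto-format ratio of -0.37 did. The corticotropin-releasing hormone receptor Crhr1 stood at 8.25 and 8.95 TPM with a log2 ratio of -0.01. The other steroid hormone receptors were lower than both corticosteroid receptors, with the progesterone receptor gene Pgr at 7.60 ± 0.488 TPM (SD, n = 2), and none of the 4 differed by the interval.

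Among 7 tested genes related to Sgk1 or its pathway, the ubiquitin ligase gene Nedd4l was higher in replicate 2. It stood at 60.1 and 70.6 TPM with a log2 ratio of 0.15 (95% interval 0.10 to 0.20). Pdpk1, the kinase that activates Sgk1, stood at 41.3 and 46.2 TPM with a log2 ratio of -0.03. Ndrg1, whose product Sgk1 phosphorylates, was higher in replicate 1 by reads, with a log2 ratio of -0.17 (interval -0.25 to -0.08) and levels of 36.6 and 36.8 TPM. Ndrg1 is also a gene of oligodendrocytes, whose markers were higher in replicate 1 for 5 of 10, a median log2 ratio of -0.12 and summed levels of 1654 and 1636 TPM, led by Mbp; their part in the Ndrg1 ratio was not tested. In the family of Tsc22d3, Tsc22d1 stood at 210 and 234 TPM and had no difference by the interval, and Tsc22d4 was higher in replicate 1, at 80.7 and 74.4 TPM with a log2 ratio of -0.21. Tsc22d1 thus exceeded Tsc22d3 in both animals.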

How the data were processed

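Per the labels, total RNA of male mice was sequenced from ribosomal RNA-depleted libraries with spike-in RNA. The 2 biosamples were taken as 2 animals. The authors deposited RSEM-format gene and transcript tables with expected counts, TPM, FPKM, each transcript's percent of its gene and posterior TPM interval bounds, whose level the file headers do not give. They also deposited kallisto-format transcript tables with estimated counts and TPM, summed here per gene. A deposited description names mm10 and GENCODE M21; the aligner, program versions and strand setting were not given in the sources used here. Deposited TPM are shares of all entries, so abundant short RNAs lower them.

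Members and gene lists were chosen with earlier results of these data known. Named genes were the members, their transcripts with a mean share of at least 10%, and from each list the 2 most abundant genes and up to 2 per direction whose interval excluded equal levels; Ep300, Crebbp, Ddit4, Hspa1a, Adcyap1, Map3k6, Hsd11b2, Serpina6, Cyp11b2, Gm10649, Nr3c1-201, Nr3c2-205, Sgk1-202 and Tsc22d3-203 were named after their values were seen, and some genes under the rule are not reported here. The marker lists also held striatum (4 of 10 higher in replicate 2), hippocampus (2 of 6 tested higher in replicate 1), inhibitory neurons (1 of 9), microglia (4 of 10), endothelium (1 of 10), mural cells (2 of 10) and meninges (2 of 9), and excitatory neurons (1 of 10 in each direction).

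Expected counts were rounded. Ratios used TMM effective library sizes (edgeR 4.0.16, R 4.3.3), 0.5 reads added, genes with at least 10 reads in 1 library, and Clopper-Pearson intervals (SciPy 1.17.1) at 99.9% for calls and 95% where printed; the reads carry no molecular identifiers, so intervals cover counting error only. The dispersion came from edgeR with an intercept only, where each library had 10 reads or more. Both calculations were tested on simulated counts. The counts for the intervals were drawn with counting error only, so they could not test the calls under spread between animals. DESeq2 1.42.0 size factors were an alternative.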

Additional observations from a re-analysis of the deposited data

How the results depend on the processing

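The count of 2 genes that differed between the animals, and of 0 past the fold minimum, was the same under DESeq2 size factors, total counts, spike-in totals, kallisto-format counts, 2 reads added, a 1.5-fold minimum, a 95% interval and no minimum count. The share of all tested genes whose interval excluded equal levels did move. It was 8.76% in the main setting, 13.7% with spike-in totals and 26.2% with a 95% interval. At the 95% interval 2 of 7 is therefore close to the share over all genes. The dispersion kept its size, at 6.78% without a minimum count and 6.38% with DESeq2 size factors. Rescaling TPM to nuclear protein-coding genes raised the median level of the 7 genes from 28.0 to 64.1 TPM and left their order as it was; leaving out each animal gave 25.2 to 30.9 TPM. The order held in all 7 positions with kallisto-format TPM and with FPKM, and leaving out each animal left 3 to 7 positions in place. A leading transcript took over 50% of its gene in both libraries for 4 genes, for 1 gene in the kallisto-format tables and for 5 among protein-coding transcripts only; the cause was not tested. The sign of a ratio near 0 turned for Nr3c2 with DESeq2 size factors (-0.0053) and with kallisto-format counts (-0.0435), and for Nr3c1 with kallisto-format counts (-0.0354). An alternative chosen after seeing the data, the TPM ratio minus that of the median protein-coding gene, gave log2 ratios of 0.33 for Sgk1, 0.28 for Fkbp5 and 0.17 for Zbtb16. No paired analysis was possible because the labels give a single group. Depth limits Hsd11b1 and the short or low transcripts most.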
